A study of Homo sapiens with 12 samples.

Results

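Promoter regions that lost both the histone variant H2A.Z and its acetylated form H2A.Zac were followed in K562 cells whose EP400 could not bind TRRAP. A member of this set was a listed H2A.Zac region that was higher in WT cells, overlapped a 2-kb window centred on the transcription start site (TSS) of an annotated gene, and had at least 25% of its length inside H2A.Z regions that were also higher in WT cells. Of 94586 listed H2A.Zac regions 1575 met this rule. They held 1.85 Mb of sequence, of which 61.1% lay on lost H2A.Z, and overlapped 1789 of the 12592 listed regions of lost H2A.Z. The members were selected on the likelihood ratios of both marks, so those ratios and the overlap describe them and test nothing.

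K562 is a human chronic myeloid leukemia line. In the cells studied here the endogenous EP400 protein carried a dTAG degron and was removed with 500 nM dTAGV-1 for 24 h, while a transgene in the AAVS1 locus, within PPP1R12C, supplied either WT EP400 or ΔTRRAP EP400, a form without the SANT and HD domains. Each rescue line was 1 clone, so clone and EP400 form cannot be told apart. The 12 libraries were 2 biological replicates each of input, H2A.Z and H2A.Zac chromatin immunoprecipitation sequencing (ChIP-seq) in each line, and every group shared the degron, the dTAGV-1 treatment and the AAVS1 insertion. The authors merged the replicates before comparing the lines. The lists therefore hold no value per sample, the depth behind a region is unknown, and no replicate test could be made. Regions are not replicates of a line. Shares below carry 95% Wilson intervals, which cover counting error only.

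EP400 is the ATPase of the human TIP60 complex that exchanges H2A for H2A.Z in nucleosomes beside start sites, and KAT5 in the same complex acetylates H2A.Z and other histones. TRRAP is the subunit that activators such as MYC, E2F and p53 contact when they bring the complex to a promoter. H2A.Z usually flanks a nucleosome-depleted start site on both sides, and its acetylated form marks active promoters and enhancers. Regions that lost H2A.Zac alone and regions that lost H2A.Zac with the variant itself are therefore counted separately here.

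Promoter sequences of 6 genes with a member are shown because they differ widely in base composition, from a promoter with 3 CpG dinucleotides in 300 bases to one with 38. They are RefSeq promoters (GRCh38.p14), read on the sense strand from 250 bases before the start to 50 after it. Capitals mark matches, on either strand, to the motif letters searched here, which include the GC box GGGCGG and the CCAAT box CCAAT and the GATA motif AGATAA and the TATA box TATAAA and the hypoxia element ACGTG. HRK is on the minus strand at chr12:116881392-116881691, GPR85 on the minus strand at chr7:113087675-113087974, FGFR4 on the plus strand at chr5:177086665-177086964, INPP5D on the plus strand at chr2:233060092-233060391, KIT on the plus strand at chr4:54657707-54658006 and CD79A on the plus strand at chr19:41877029-41877328.
HRK: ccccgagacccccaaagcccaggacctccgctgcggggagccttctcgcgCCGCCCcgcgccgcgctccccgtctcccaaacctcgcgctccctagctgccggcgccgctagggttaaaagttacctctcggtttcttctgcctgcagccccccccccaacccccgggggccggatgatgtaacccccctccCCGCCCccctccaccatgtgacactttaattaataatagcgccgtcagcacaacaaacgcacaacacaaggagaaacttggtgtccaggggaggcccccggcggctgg
GPR85: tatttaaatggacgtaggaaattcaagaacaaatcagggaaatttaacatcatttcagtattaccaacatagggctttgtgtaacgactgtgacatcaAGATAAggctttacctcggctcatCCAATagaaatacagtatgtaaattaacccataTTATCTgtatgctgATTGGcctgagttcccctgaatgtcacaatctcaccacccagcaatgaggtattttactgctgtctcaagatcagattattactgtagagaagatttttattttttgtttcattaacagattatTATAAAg
FGFR4: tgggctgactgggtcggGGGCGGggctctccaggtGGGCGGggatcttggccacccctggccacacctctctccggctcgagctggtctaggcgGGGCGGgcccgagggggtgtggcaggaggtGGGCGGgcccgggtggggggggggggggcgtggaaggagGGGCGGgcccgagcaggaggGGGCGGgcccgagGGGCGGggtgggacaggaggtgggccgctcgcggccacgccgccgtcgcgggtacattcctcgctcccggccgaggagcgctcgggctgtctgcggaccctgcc
INPP5D: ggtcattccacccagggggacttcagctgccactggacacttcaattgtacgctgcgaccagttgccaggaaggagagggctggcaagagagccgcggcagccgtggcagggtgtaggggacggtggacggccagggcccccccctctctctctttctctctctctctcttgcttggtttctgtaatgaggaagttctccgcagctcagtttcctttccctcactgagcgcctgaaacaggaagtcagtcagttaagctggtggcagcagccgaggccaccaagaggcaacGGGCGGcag
KIT: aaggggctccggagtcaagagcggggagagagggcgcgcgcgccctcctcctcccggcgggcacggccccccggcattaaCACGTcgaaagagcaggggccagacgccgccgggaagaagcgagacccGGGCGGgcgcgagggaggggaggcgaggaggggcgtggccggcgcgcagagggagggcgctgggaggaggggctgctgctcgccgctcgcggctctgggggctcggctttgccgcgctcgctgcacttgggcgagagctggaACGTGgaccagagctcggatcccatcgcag
CD79A: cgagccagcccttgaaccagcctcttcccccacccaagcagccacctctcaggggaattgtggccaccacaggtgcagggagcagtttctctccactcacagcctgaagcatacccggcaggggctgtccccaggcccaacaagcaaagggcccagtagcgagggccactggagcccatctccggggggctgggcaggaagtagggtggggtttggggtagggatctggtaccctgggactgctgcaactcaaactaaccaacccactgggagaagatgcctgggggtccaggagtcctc

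All 300 bases of each of these 6 promoters lay in the lost H2A.Zac region. All 300 bases also lay on lost H2A.Z at HRK, FGFR4, INPP5D, KIT and CD79A, against 13 bases at GPR85. The FGFR4 promoter was 78.7% GC with 7 matches to the GC box, whereas that of GPR85 was 34.3% GC. KIT held 38 CpG dinucleotides and CD79A held 4, with no match in CD79A to any motif searched.

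DDN had the highest ratios in both marks. This gene, which encodes dendrin of neurons and kidney podocytes, lost H2A.Zac over chr12:48998454-49000438 with a log10 likelihood ratio of 129, the score by which the lists rank how much better the merged reads fit a difference between the lines. The region reached from 1063 bp upstream of the TSS to 921 bp downstream, across exons 1 to 2 of 2. Lost H2A.Z covered 76.3% of it at chr12:48998640-49000154, with a ratio of 44.4. No unchanged or gained region of either mark lay within 1 kb of this TSS, and a second pair of lost regions followed downstream, with ratios of 8.19 for H2A.Zac and 10.2 for H2A.Z.

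The next genes in order of H2A.Zac ratio were each on a different chromosome. DLK1, an imprinted non-canonical Notch ligand, followed at chr14:100726204-100727613 with a ratio of 96.7. That region began 499 bp downstream of the gene's outermost TSS and contained the start of its canonical transcript at 100726892. GATA5, a zinc-finger factor of heart and gut development, had a ratio of 83.6 at chr20:62475526-62477827, and lost H2A.Z covered 51.7% of the region. MFAP4, a microfibril-associated matrix protein, had 70.0 at chr17:19386960-19388310. ELANE, neutrophil elastase, had 68.5 at chr19:850343-851273. The canonical transcript of ELANE starts at 852303, outside this region. Each of these 4 genes had 1 lost H2A.Z region under its member, with ratios of 13.9 for DLK1, 19.2 for GATA5, 18.4 for MFAP4 and 18.5 for ELANE.

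IL7, a cytokine of lymphocyte survival, came next with an H2A.Zac ratio of 59.6, followed by HRK with 55.9. HRK encodes a BH3-only activator of apoptosis. Its member ran from 690 bp upstream to 875 bp downstream of the TSS. ADAP1, an ArfGAP adaptor, had 54.9, GPR85, an orphan receptor of the brain, had 51.9, and PIK3CD, the delta catalytic subunit of PI3-kinase in leukocytes, had 48.2. The PIK3CD member lay at the outermost TSS, while the canonical transcript starts at 9651731, outside the member at chr1:9626319-9631041. Of these 10 leading genes, ADAP1 had the most GC-rich member at 80.7% and GPR85 the least at 41.1%.

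**Figure D1:**
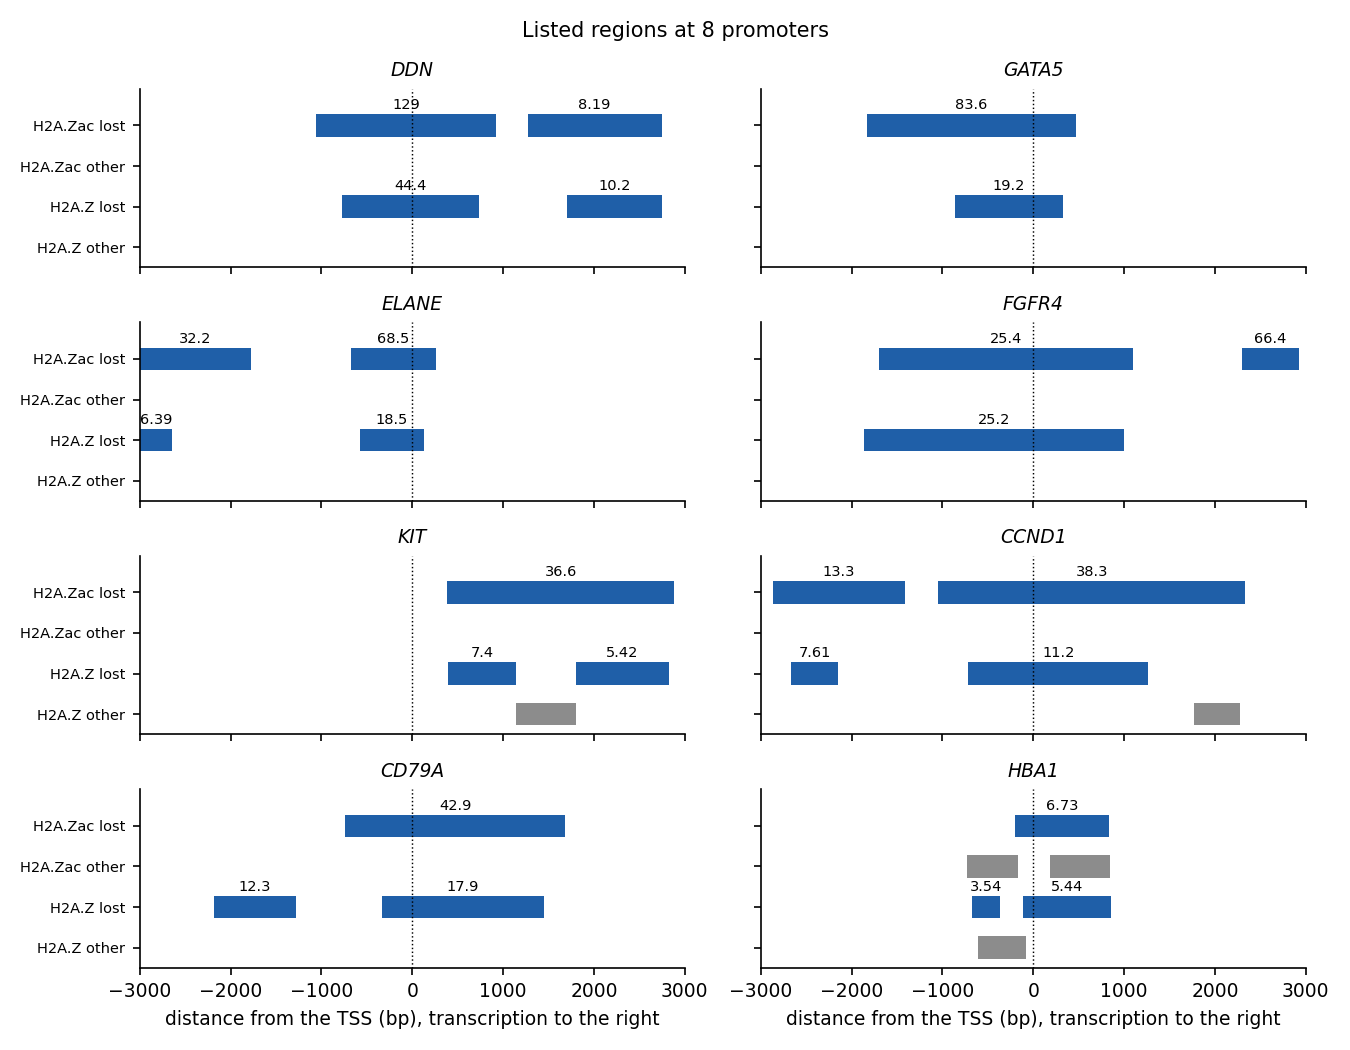
Listed regions around the TSS of 8 genes with a member, plotted by distance from the TSS in bp with transcription to the right. Blue bars are lost regions with their log10 likelihood ratio above them, grey bars are unchanged regions, and bars end at the edge of the 3-kb frame. DDN, GATA5, ELANE and FGFR4 show lost regions of both marks and no unchanged region, whereas KIT, CCND1 and HBA1 also hold unchanged H2A.Z.

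Ranked by H2A.Z instead, DDN was followed by 2 neighbours on chromosome 5. UIMC1, which encodes the ubiquitin-binding RAP80 of the BRCA1-A complex, had an H2A.Z ratio of 29.4 against 15.6 for H2A.Zac, with lost H2A.Z at chr5:177020946-177023658, on both sides of the gene's outermost TSS at 177022633. The canonical transcript of UIMC1 starts at 177006779, outside the member, which overlapped none of its exons. FGFR4, a fibroblast growth factor receptor, had 25.2 for H2A.Z and 25.4 for H2A.Zac, and lost H2A.Z covered 96.5% of its member. PDLIM2, a PDZ and LIM domain protein, had 22.2 for H2A.Z. That lost H2A.Z lay 1351 to 2976 bp downstream of the gene's outermost TSS, outside the window. The canonical transcript of PDLIM2 starts at 22580475, inside the member. INPP5D, the inositol phosphatase SHIP1 of blood cells, had 19.3 for H2A.Z. DEF6, a guanine nucleotide exchange factor of lymphocytes, had 18.4, and KPTN, a subunit of the KICSTOR regulator of mTORC1, had 18.1.

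Over all members the H2A.Zac ratio exceeded that of the H2A.Z beneath it in 1409 of 1575 regions. The median was 11.0 for H2A.Zac (quartiles 7.55 and 17.1) and 6.10 for H2A.Z (quartiles 4.93 and 7.95). An H2A.Zac ratio of at least 20 was reached by 282 members and an H2A.Z ratio of at least 20 by 7. The ratios of the marks moved together across members, with Spearman's rho of 0.531 and Pearson's r of 0.584 on log values over 1575 regions. Both also moved with region width, with rho of 0.560 for H2A.Zac and 0.427 for H2A.Z. A wider region holds more reads and the marks share their lines and the selection rule, so these correlations are descriptions of the lists.

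**Figure D2:**
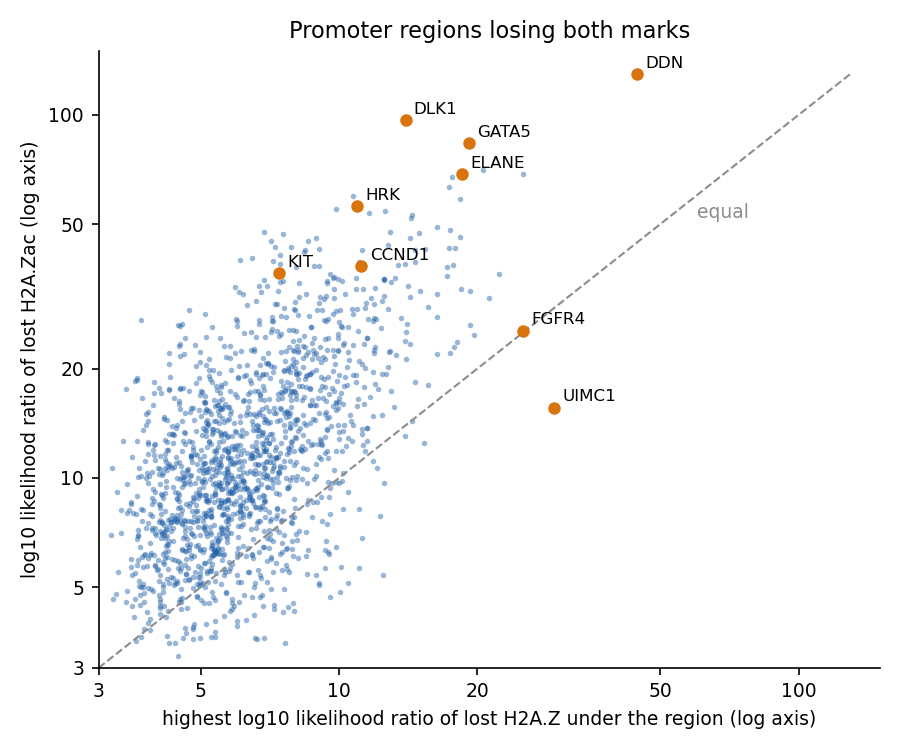
Each point is 1 of the 1575 members, with the highest log10 likelihood ratio of lost H2A.Z under it on the x axis and that of lost H2A.Zac on the y axis, both on log axes. Most points lie above the dashed line of equal ratios (1409 of 1575), with DDN at the upper right and UIMC1 below the line.

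At the selection threshold the change was gradual. The 75 members with 25 to 30% of their length on lost H2A.Z had a median H2A.Zac ratio of 10.9 and a median width of 1276 bp. The 61 lost regions with 20 to 25% on lost H2A.Z, just outside, had 10.3 and 1296 bp. The median member had 62.7% of its length on lost H2A.Z, and 509 members had at least 75%. Unchanged H2A.Z occupied some of the length of 1002 members, 63.6% (61.2 to 66.0). Gained H2A.Z lay in 0 of 1575, an upper limit of 0.243%. The rule puts at least 25% of each member on lost H2A.Z, which leaves less room for the other classes. These 2 shares were not computed for other regions, so nothing is read from them.

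Members were 4.93% of the 31938 H2A.Zac regions beside a TSS, of which 16.6% were lost. Among the 22417 H2A.Z regions beside a TSS 10.2% were lost. These shares come from the calls that chose the members and are given as background. Of the 5303 lost H2A.Zac regions beside a TSS, 29.7% (28.5 to 30.9) were members, against 28.3% (27.7 to 29.0) of the 19179 lost regions away from TSSs that met the same overlap. At a ratio of 10 in both marks the share of lost regions was 8.59% and that of all TSS-proximal regions 0.470%, with 150 members. The gain in the other direction overlapped less. Gained H2A.Z covered at least 25% of 1838 of 9404 gained H2A.Zac regions beside a TSS, 19.5% (18.8 to 20.4).

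The lost regions that were not members fell into 2 kinds. In 2158 the H2A.Zac loss lay on unchanged H2A.Z, and in 1570 it lay on under 25% of either class, of which 1314 had no listed H2A.Z at all. Beside the 2158 regions of lost H2A.Zac on unchanged H2A.Z, members were wider. Their median width was 971 bp (95% interval 941 to 1005), against 533 bp (516 to 553) there, 892 bp (862 to 924) for regions that gained both marks and 859 bp (850 to 868) for unchanged H2A.Zac. Among the wide members were those of KCNQ5, a voltage-gated potassium channel, with 5742 bp, and GPR85 with 5271 bp.

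GPR85 shows how regions listed as lost and as unchanged alternated within a member. Its lost H2A.Zac ran without a break from 1162 bp upstream to 4108 bp downstream of the TSS and overlapped all 3 exons. Beneath it lay 4 lost H2A.Z regions with ratios of 14.4, 7.63, 11.8 and 10.4 in the direction of transcription. Between the second and the third, 533 to 1286 bp downstream of the TSS, was an unchanged H2A.Z region with a ratio of 0.552. MEIOSIN, a regulator of meiotic entry, and DTX2, an E3 ligase of the Notch pathway, also had members over 5 kb, of 5245 and 5095 bp.

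Members lay around the start site, more of them upstream than downstream by count. The nearest TSS was spanned by 664 members, 42.2% (39.7 to 44.6), while 587 lay wholly upstream (37.3%) and 324 wholly downstream (20.6%). With upstream positions negative, their centres had a median of -128.5 bp from the TSS (95% interval -194 to -72.5). The share that spanned a TSS was 69.3% (61.5 to 76.2) for the 150 members left at a ratio of 10 in both marks. The median was -336.75 bp with protein-coding TSSs alone, and turned to 95.75 bp (-64.5 to 272.5) for those 150 members. For lost H2A.Zac on unchanged H2A.Z the median was -141 bp, and it was positive in the other classes, with 157.5 bp for gained both and 83.5 bp for unchanged H2A.Zac. The share wholly upstream was 44.3% (42.3 to 46.5) among lost H2A.Zac on unchanged H2A.Z, above that of the members, and 18.1% (16.4 to 19.9) among regions that gained both marks. Position went with ratio among the members. Those spanning the TSS had a median width of 1268 bp and a median H2A.Zac ratio of 13.8, against 787 bp and 9.47 wholly upstream and 870 bp and 9.91 wholly downstream.

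A wider region is more likely to cross a given base, so spanning was also read at matched width. Within regions of 500 to 1000 bp, 31.1% (27.6 to 34.8) of members spanned a TSS, against 27.9% (25.04 to 31.0) of lost H2A.Zac on unchanged H2A.Z, 40.5% (36.9 to 44.4) of gained both and 42.4% (41.2 to 43.7) of unchanged regions. Within 1000 to 2000 bp the shares were 54.6%, 49.3%, 72.9% and 74.6% in the same order. At matched width both kinds of lost region thus spanned the TSS less often by count than the gained and unchanged ones, and their own intervals overlapped.

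Around the 967 protein-coding TSSs nearest to a member, lost H2A.Zac was most frequent at -475 bp, where it covered 51.8% of them, and covered 39.2% of the start sites themselves. Lost H2A.Z peaked at the same place with 34.6%, and covered 25.2% of the start sites. Unchanged H2A.Z at these genes peaked at 175 bp with 58.6%. The upstream flank of such a promoter was thus where the lists recorded loss most often, and the downstream flank was where they most often recorded unchanged H2A.Z. At the 10185 TSSs nearest to an unchanged H2A.Zac region, unchanged H2A.Z peaked at 225 bp with 80.2% and lost H2A.Z did not exceed 3.27% in any bin. That highest bin was at -625 bp, and lost H2A.Zac peaked at -675 bp with 10.5%. At TSSs nearest to lost H2A.Zac on unchanged H2A.Z, lost H2A.Zac peaked at -575 bp with 40.2%. The upstream position of the loss was thus not particular to member promoters.

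**Figure D3:**
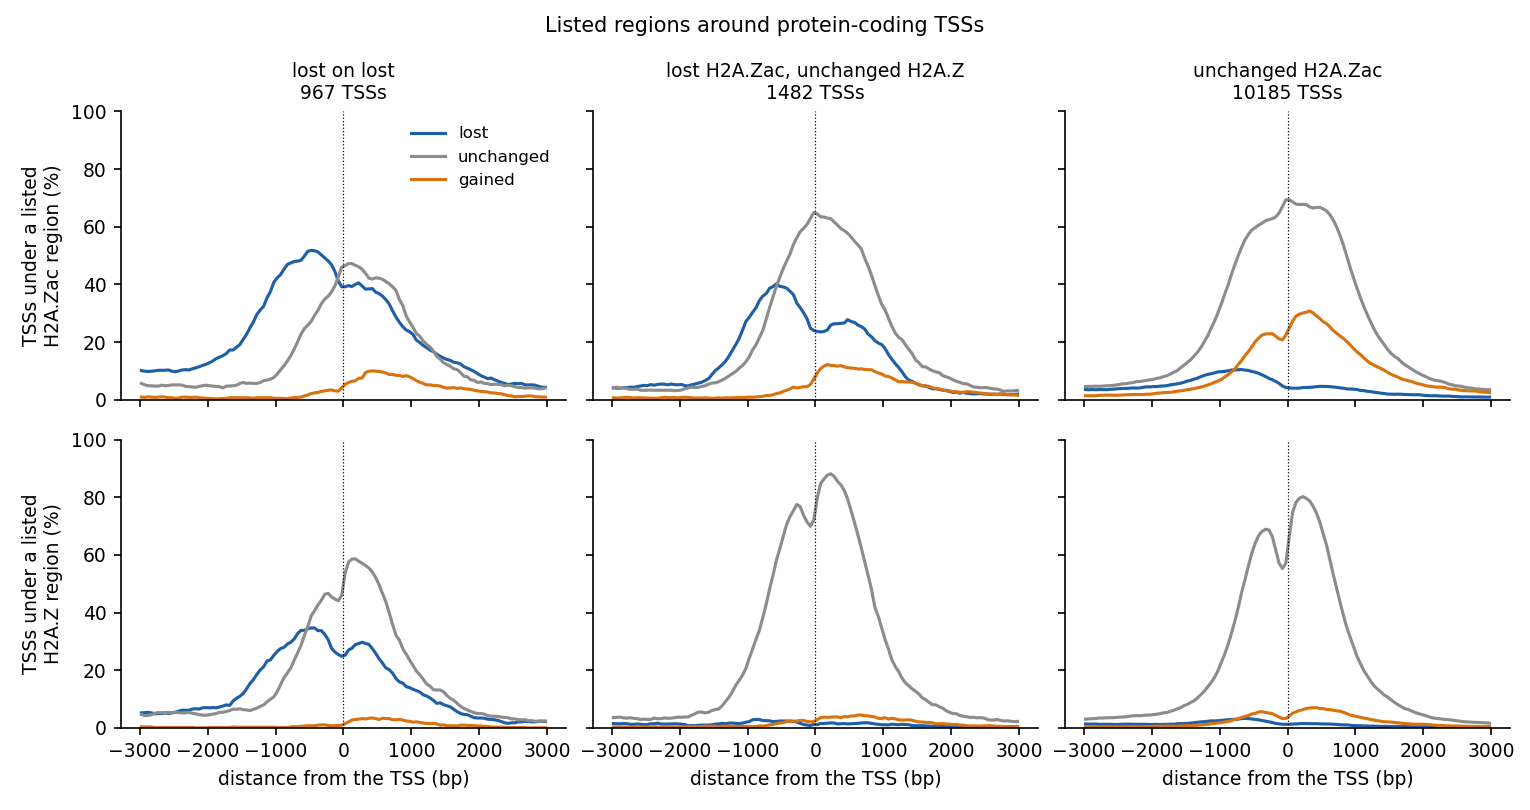
Share of protein-coding TSSs covered by a listed H2A.Zac region (upper row) or H2A.Z region (lower row) in 50-bp bins by distance from the TSS in bp, for TSSs nearest to a member (left, 967), to lost H2A.Zac on unchanged H2A.Z (centre, 1482) and to unchanged H2A.Zac (right, 10185). The blue line of lost H2A.Z reaches 34.6% at -475 bp in the left panel, and the selection fixes that it is low in the centre panel.

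Unchanged H2A.Z lay beside the loss at most of these genes. Of the 1049 protein-coding genes with a member, 820 also had unchanged H2A.Z in the 2-kb window, 78.2% (75.6 to 80.6), against 88.8% of all 12472 listed genes, and 728 had unchanged H2A.Zac, 69.4% (66.5 to 72.1), against 89.7%. Gained H2A.Zac was present at 198 of them, 18.9% against 55.7%, and gained H2A.Z at 72, 6.86% against 19.9%. At 189 genes, 18.0% (15.8 to 20.5), DDN and GATA5 among them, no gained or unchanged region of either mark lay in the window, against 377 of all listed genes, 3.02%. Lost H2A.Z itself lay in the window at 957 of the 1049 genes, 91.2% (89.4 to 92.8). At the others the member met lost H2A.Z only outside the window, since the rule takes the overlap anywhere along the region. The rule partly sets these shares, since a window that holds lost regions has less room for other classes. Nothing is read from the differences. The lists were not exclusive at region edges, since 628 members shared at least 1 bp with an unchanged H2A.Zac region, amounting to 4.94% of the members' bases.

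Members held fewer CpG dinucleotides for their base composition than the other classes by these medians. Their median GC content was 54.3% (95% interval 53.8 to 55.0), within 2 percentage points of the medians in the other classes. Their CpG ratio, the count of CpG dinucleotides over that given by the C and G content, was 0.394 (0.379 to 0.408), against 0.559 (0.543 to 0.576) for lost H2A.Zac on unchanged H2A.Z, 0.660 (0.648 to 0.673) for gained both and 0.639 (0.634 to 0.643) for unchanged regions. Composition of a CpG island, here at least 50% GC with a ratio of at least 0.6, was found in 361 members, 22.9% (20.9 to 25.1), against 39.9%, 49.9% and 49.99% in those classes. Leaving out each chromosome in turn moved the members' share between 21.96 and 23.97%. Within regions of 500 to 1000 bp the median ratios were 0.449, 0.558, 0.652 and 0.620 in the same order.

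Members were also less often beside divergent genes by count. A TSS on the opposite strand lay within 1 kb of the nearest TSS for 181 members, 11.5% (10.01 to 13.2), against 17.2% (15.7 to 18.9) for lost H2A.Zac on unchanged H2A.Z, 31.6% (29.5 to 33.7) for gained both and 28.5% (27.8 to 29.2) for unchanged regions. The nearest TSS was protein-coding for 929 members, 59.0% (56.5 to 61.4), of a lncRNA for 399 and of a pseudogene for 163. The pseudogene share was 10.3% (8.94 to 12.0), against 6.81% (5.82 to 7.95) for lost H2A.Zac on unchanged H2A.Z. It was 5.28% (4.35 to 6.40) for gained both and 4.54% (4.24 to 4.87) for unchanged regions. Per class of TSS, members were 4.38% (4.11 to 4.66) of H2A.Zac regions at protein-coding genes and 5.16% (4.69 to 5.68) at lncRNA genes. They were 10.4% (8.58 to 12.5) at processed and 12.2% (8.68 to 16.9) at unprocessed pseudogenes. A processed pseudogene is a retrocopy without the promoter of its parent, and its annotated start need not be a promoter. Members at pseudogenes had a median GC content of 49.9% and a CpG ratio of 0.310.

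The 300-base promoters of the 1049 genes, read from hg38 at the GENCODE start, had a CpG-island composition in 58.4% (55.4 to 61.4), against 76.8% (74.6 to 78.9) of 1536 genes with lost H2A.Zac on unchanged H2A.Z and no member, and 72.9% (72.1 to 73.6) of all 12472 protein-coding genes with a listed H2A.Zac region. Among 14 motifs counted by their letters on both strands, the ETS core CCGGAAG was in 10.3% (8.60 to 12.3) of member genes and 17.1% (16.4 to 17.8) of the listed genes. It was also in 10.3% (8.87 to 11.9) of genes with lost H2A.Zac on unchanged H2A.Z, and in 21.7% (19.7 to 23.8) of genes with gained both. The NRF1 core GCGCATGC was in 2.67% (1.85 to 3.83) of member genes and 5.33% of the listed genes. The YY1 core AAGATGGC was in 2.38% (1.62 to 3.49) and 4.23%. The GC box was in 59.3% (56.3 to 62.2) and 65.4%. Of all 20033 protein-coding genes, listed or not, 11.9% held the ETS core, 3.78% the NRF1 core and 3.03% the YY1 core. Those shares lie inside the intervals of the member genes, whereas the GC box share of 52.4% lies below.

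The E-box CACGTG, which MYC and other bHLH factors bind, was in 12.2% (10.4 to 14.3) of member genes against 9.85% (9.34 to 10.4) of the listed genes, with intervals that met at their ends. It was in 11.5% (9.96 to 13.1) of genes with lost H2A.Zac on unchanged H2A.Z. Among genes with gained both it was in 7.75% (6.51 to 9.19), and among all protein-coding genes in 8.36% (7.98 to 8.75). For the other 9 motifs, among them the GATA motif, CCAAT box, TATA box, E2F core TTTGGCGC and hypoxia element, the share of listed genes lay inside the interval of the member genes. The hypoxia element's letters lie within those of the E-box, so every promoter with an E-box also counts for the hypoxia element. In a window from 500 bases before to 100 after the start, the E-box was in 18.0% (15.8 to 20.5) against 14.9% (14.3 to 15.6). The ETS core there was in 13.6% (11.7 to 15.8) against 21.2% (20.5 to 21.9).

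The E-box, GC box and ETS shares do not identify a factor, and the FGFR4 promoter above, with its 7 GC boxes, holds no E-box. KIT has the hypoxia element's letters at 2 places, on opposite strands. GPR85 has the GATA letters on each strand.

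The genes with a member were 8.41% (7.94 to 8.91) of the 12472 listed protein-coding genes, and each gene list below is read against that background with no test. Lists were counted over the genes with a listed H2A.Zac region in the window. At 37 genes there were 2 or more members, and TESC, a calcium-binding regulator of megakaryocytic differentiation, had 3.

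Genes of the G1 phase had 2 of 11 with a member. CCND1, cyclin D1, which drives entry into the cell cycle, had a ratio of 38.3 for H2A.Zac at chr11:69640106-69643491, from -1050 to 2335 bp of the TSS. Lost H2A.Z with a ratio of 11.2 covered it from -714 to 1265 bp, and unchanged H2A.Z began at 1768 bp. A second pair of lost regions lay further upstream of CCND1, with 13.3 for H2A.Zac and 7.61 for H2A.Z. CDKN2D, the p19 inhibitor of CDK4 and CDK6, was at the low end of the range with 5.09 for H2A.Zac and 5.52 for H2A.Z.

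Receptor tyrosine kinase genes had 3 of 17. KIT, the stem cell factor receptor of early blood cells, had a member at chr4:54657651-54660153 with an H2A.Zac ratio of 36.6, over 2 lost H2A.Z regions with ratios of 7.40 and 5.42 that were separated by unchanged H2A.Z. FGFR4 is described above. AXL, a receptor of the TAM family, had 15.6 for H2A.Zac and 13.1 for H2A.Z. Notch, Wnt and TGF-beta genes had 5 of 29. These were LFNG, a fucose-modifying enzyme of Notch, with 27.6, HES4, a Notch target repressor, with 17.1, the ligand DLL4 with 12.3, the Wnt receptor FZD2 with 10.6 and the receptor TGFBR1 with 10.3.

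Blood lineage genes were read beside the cell type in the labels, which call the cells lymphoblasts. A listed H2A.Zac region of any class lay at 27 of 36 erythroid and megakaryocytic genes, including KLF1, GFI1B and HBG1. Such a region lay at 13 of 20 lymphoid genes and at 12472 of all 20046 protein-coding genes. These counts do not establish the cell type. A listed region is not a level of expression, and the lists do not order genes by amount. Of the 27, 4 had a member. RUNX1, a regulator of blood stem cells, had a ratio of 11.3 at chr21:36004924-36006231, SLC25A37, the mitochondrial iron importer, had 8.09, HBA1, alpha globin, had 6.73 and EPB41, red cell protein 4.1, had 3.52. HBA1 has a near-identical copy in HBA2, so its reads could have come from either gene.

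Of the 13 lymphoid genes 4 had a member, 30.8% (12.7 to 57.6). CD79A, the signalling chain of the B-cell receptor, had the highest ratios of the list, with 42.9 for H2A.Zac at chr19:41876543-41878961 and 17.9 for H2A.Z. CD2, a T-cell adhesion receptor, had 19.3, the B-cell lectin CD22 had 6.71 and the kinase LCK had 6.05. Both B-cell genes are on chromosome 19, where members were frequent.

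Lists for growth and inducible programs had shares whose intervals included the background of 8.41%. DNA replication and E2F target genes had 3 of 42, with GINS4 of the replicative helicase at 14.2, CDK1 at 13.2 and the pocket protein gene RBL1 at 11.5. NF-kB targets had 2 of 21, with the cytokine TNF at 21.6, 91.7% of its member on lost H2A.Z, and BCL2L1, an inhibitor of apoptosis, at 16.3. Hypoxia targets had 3 of 24, among them PFKFB4, a regulator of glycolysis, at 8.68 and the glucose transporter SLC2A1 at 8.63. AP-1 and early response genes had 2 of 24, FOSL1 with 19.4 and FOSB with 7.28, and p53 targets had 2 of 20, the repair gene DDB2 with 11.4 and the nuclease gene AEN with 9.11. MYC targets had 1 of 25, PPAN of ribosome assembly with 5.06.

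At some of the named genes the TSS window also held gained regions. The FOSL1 member lay from -3582 to -994 bp and only touched the window, whereas its TSS had gained H2A.Zac from -19 to 2065 bp (14.1) and gained H2A.Z with 8.88 and 7.59. At CDK1 the member ran from -1477 to -541 bp, over lost H2A.Z with a ratio of 4.35, and gained H2A.Z from 169 to 889 bp had 6.51. TGFBR1 had gained H2A.Zac from 688 to 2364 bp with 10.1, beside 10.3 for its loss, and its lost H2A.Z had 3.83. Gained H2A.Zac lay in the windows of SLC25A37 (8.06), SLC2A1 (5.99), PPAN (5.85), AEN (3.89), and HOXB3 and HOXB6 (3.78). DTX2 had gained H2A.Zac with 5.00 and gained H2A.Z with 4.86.

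Among the housekeeping lists, cytosolic ribosomal protein genes had 1 of 79, RPSA with 7.37, which is 1.27% (0.224 to 6.83). RPSA also had gained H2A.Zac (5.74) and gained H2A.Z (4.45) downstream of its TSS. Respiratory chain genes had 2 of 32, among them COX8A with 9.70, whose TSS also had gained H2A.Zac with 3.96, and cholesterol genes had 1 of 24, TM7SF2 with 6.13. Genes for the subunits of the TIP60 complex had 2 of 19, VPS72, a chaperone for H2A.Z, with 5.54 and YEATS4, a reader of acetylated histones, with 4.63. H2A.Z genes and exchange factors had 0 of 8, an upper limit of 32.4%. HOX genes had 3 of 18, namely HOXB7 with 9.77 and, through a shared region with 9.63, HOXB3 and HOXB6.

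Grouping by the letters of the gene symbol, a description added after values were seen, gave 84 symbol families with at least 15 listed genes. The highest shares were those of symbols that begin with DHX, for RNA helicases, with 5 of 16, BCL with 5 of 17, KCTD with 4 of 16, CD, for surface antigens of leukocytes, with 11 of 52 (21.2%, 12.2 to 34.0) and IL, for interleukins and their receptors, with 7 of 36 (19.4%, 9.75 to 35.0). There were 13 families with no member, of which those of the symbols MRPL, for mitochondrial ribosomal proteins, with 48 genes and RPL with 46 were the largest. A region that gained both marks lay at 16 of the 46 RPL genes. Of all 12472 listed genes, 1536 had such a region and no member.

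**Figure D4:**
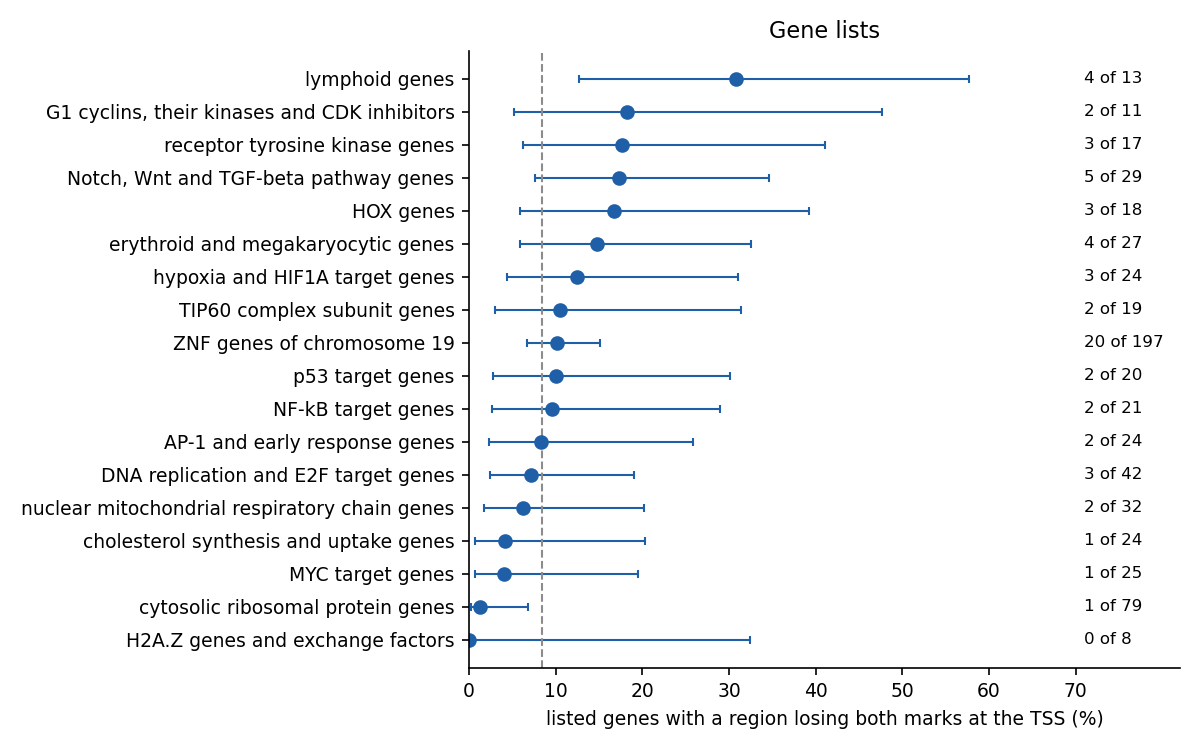
Percent of the genes of each list with a listed H2A.Zac region that have a member at the TSS (points), with 95% Wilson intervals for counting error (bars), the counts at the right and all listed genes at 8.41% (dashed line). Lymphoid genes have the highest share with 4 of 13 and ribosomal protein genes 1 of 79, and the intervals of most lists include the dashed line.

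The genes central to the design were read separately. TERT, the catalytic subunit of telomerase, had lost H2A.Zac from -523 to 715 bp of the TSS with a ratio of 10.8, and was not a member because it met no lost H2A.Z. DACH1, a transcriptional repressor, had gained H2A.Zac with 53.7 over gained H2A.Z with 11.5 and 5.58. At EP400 itself, H2A.Zac across the TSS was gained with 11.2. At PPP1R12C, which carries the transgene in both lines, a lost pair with 13.0 for H2A.Zac and 9.32 for H2A.Z lay 1892 to 2871 bp downstream of the TSS, outside the window. Gained H2A.Zac crossed the PPP1R12C TSS from -86 to 214 bp with 7.56, and lost H2A.Zac with 4.02 lay from -1465 to -1025 bp.

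Members were unevenly spread over chromosomes. They made up 12.1% (10.03 to 14.6) of the H2A.Zac regions beside a TSS on chromosome 20, with 95 of 783, and 9.34% (8.20 to 10.6) on chromosome 19, with 211 of 2260. Chromosome 1 had 7.29% (6.46 to 8.20), chromosome 13 had 4 of 568, 0.704% (0.274 to 1.80), and X had 16 of 1058, 1.51% (0.933 to 2.44). Chromosomes 19 and 20 together held 306 members, 19.4% (17.5 to 21.5) of the set, against 9.53% of all TSS-proximal regions. Without them there were 1269 members at 798 protein-coding genes, 4.39% of TSS-proximal regions. The part of DNA copy number in these shares was not tested, and the input libraries were not analysed here.

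**Figure D5:**
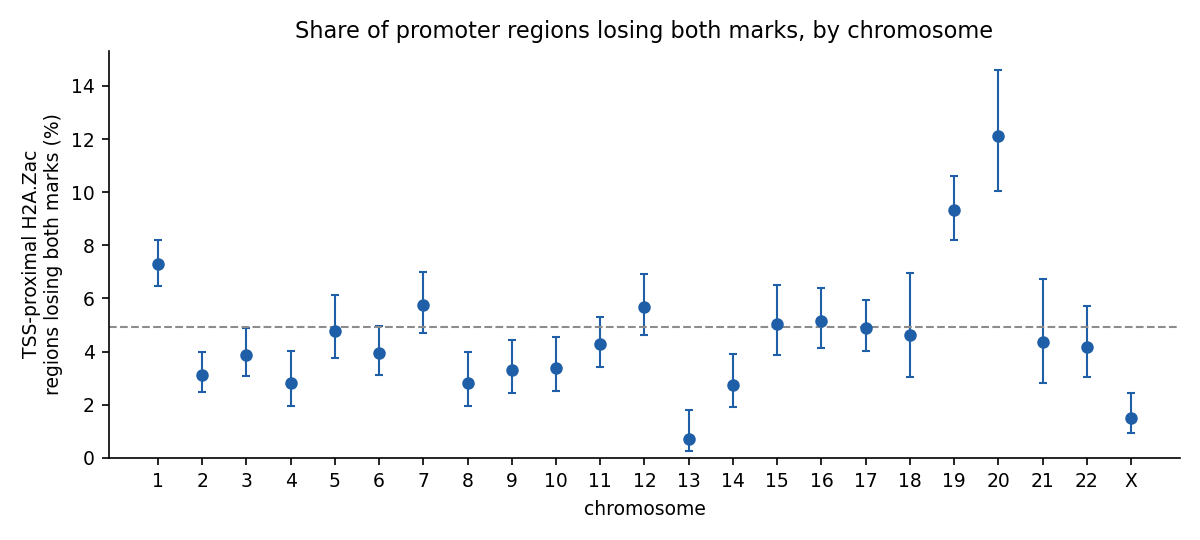
Percent of TSS-proximal H2A.Zac regions that lost both marks on each chromosome (points), with 95% Wilson intervals for counting error (bars) and the share over all chromosomes, 4.93%, as the dashed line. Chromosomes 20 and 19 stand highest at 12.1% and 9.34%, and chromosome 13 lowest at 0.704%.

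Within chromosomes, members were found in 376 of the 591 windows of 5 Mb that held a TSS-proximal H2A.Zac region, and the 10 fullest held 257 of them. The window from 50 to 55 Mb on chromosome 19 had 33 members among 203 TSS-proximal H2A.Zac regions, 16.3%, and 3 regions that gained both marks. That from 120 to 125 Mb on chromosome 12 had 27 of 136, 19.9%, and 0 that gained both, and that from 35 to 40 Mb on chromosome 20 had 18 of 94, 19.1%, and 1. Some of the fullest windows were dense in genes and nearer the share of 4.93% over all chromosomes, with 29 of 366 (7.92%) from 0 to 5 Mb on chromosome 19 and 20 of 327 (6.12%) from 0 to 5 Mb on chromosome 16. Zinc-finger genes of chromosome 19 had 20 of 197 with a member, 10.2% (6.67 to 15.2), led by ZNF490 with 27.0 and ZNF554 with 19.6.

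Neighbouring members within 100 kb formed 250 groups that held 650 members, and 925 stood alone. The largest, with 9 members over chr19:708033-1203414, included ELANE, the complement protease gene CFD, the kisspeptin receptor gene KISS1R and PALM, but 13 gained and 23 unchanged H2A.Zac regions lay there too. A group of 7 at chr12:48977660-49195956 held DDN, the ligand gene WNT1 and the tubulin genes TUBA1A and TUBA1C, where the H2A.Zac regions beside a TSS were 12 lost, 8 unchanged and 0 gained. TNF, LST1 and AIF1, of the immune gene region on chromosome 6, were in a group of 6 at chr6:31574089-31718097. HBA1 and its neighbours HBQ1 and LUC7L were in a group of 5 at chr16:176479-281431.

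The array of 5S ribosomal RNA genes on chromosome 1 held 8 members in chr1:228608493-228645158, at 10 of its 17 annotated genes. It had 19 lost, 9 unchanged and 0 gained H2A.Zac regions. The repeats of this array are nearly identical, so reads cannot be assigned to a repeat, and the 8 members are not independent of each other.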

How the data were processed

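ChIP-seq of input, H2A.Z and H2A.Zac in WT and ΔTRRAP K562 cells was read from 6 lists of regions. Per the submitters' processing notes and the study's methods, the authors aligned reads to hg38 with Bowtie2 2.4.5, merged the 2 replicates, compared the lines with bdgdiff of MACS2 2.2.7.1 at a log10 likelihood ratio of 3, and kept regions with at least 25% of their length in reproducible peaks (IDR 0.05). Column 5 of the deposited lists is that ratio, a score. Regions listed for condition 1 are called lost here. The input libraries were not analysed here.

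Members and gene lists were chosen with earlier results of these data known. TSSs were those of GENCODE 44 genes. Overlap, position and composition were computed in Python 3.11.15 with pandas 2.3.3 and pysam 0.24.0, and the selection was checked with bedtools 2.31.1 and tested on simulated data. Named genes were the 10 highest in each mark, the 5 widest, up to 6 per list and 5 genes of the study, and some of these are not reported here. RefSeq promoters matched 805 of 1049 member genes by symbol (76.7%), so motif shares were read from hg38. Printed promoters were those of named genes with an entry inside the member, trimmed to 6 after values were seen.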

Additional observations from a re-analysis of the deposited data

How the results depend on the processing

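No paired analysis was possible because the lists hold no value per replicate, and for the same reason no replicate could be left out. Under 13 other settings the count of 1575 members kept within 1.5 times except with protein-coding TSSs only (1002), a likelihood ratio of 10 in both marks (150) and regions of at least 500 bp in both marks (894). The share of lost TSS-proximal H2A.Zac regions on lost H2A.Z, 29.7%, became 32.5% at 1 bp, 20.4% at 50% of the region, 32.0% at 25% of either region, 32.8% at 500 bp and 28.2% at 2 kb around the TSS, 25.2% at a ratio of 5, 8.59% at 10, 25.5% in regions of at least 500 bp and 27.8% without chromosomes 19 and 20. The share of all TSS-proximal regions, 4.93%, became 5.39%, 3.39%, 5.31%, 4.70%, 5.25%, 3.39%, 0.470%, 3.97% and 4.39% under the same settings in that order, 4.17% with protein-coding TSSs, 5.24% with TSSs of all transcripts and 4.63% with lost regions within 1 kb merged. The share spanning a TSS, 42.2%, was 36.7% with protein-coding TSSs, 47.0% at a ratio of 5 and 69.3% at 10. Median GC was 55.6% with protein-coding TSSs, 56.1% at a ratio of 10 and 53.8% without chromosomes 19 and 20. The median centre moved to -336.75 bp with protein-coding TSSs and turned to 95.75 bp downstream at a ratio of 10, with an interval of -64.5 to 272.5 bp over 150 members. At that ratio 90 genes had a member. The cause of these shifts was not tested. The other 27 values stayed within 1.5 times the reported count or inside the 95% interval of the reported share or median, and the share on chromosomes 19 and 20 was 18.6% by base pairs.

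The lists limit what can be said. With replicates merged, the spread between samples is unknown, an interval here covers counting error over regions only, and a region below the cutoff of 3 was not shown to be unchanged.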
